A study of Mus with 438 samples.

Results

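Solute carriers are the membrane proteins that move ions, nutrients, transmitters and metabolites across the membranes of the cell and its organelles, and they are named by family number and letter. The members described here were the genes of the deposited mouse table whose symbol began with Slc and a digit, 168 of 10390 genes. Of these, 164 had a plain transporter symbol, and Slc4a1ap, Slc9a3r1, Slc9a3r2 and Slc7a6os, which encode partner or neighbouring proteins, were kept apart. Classes were set by family number alone, so a single member may differ from its class in solute or membrane. By family class, 34 members were mitochondrial carriers and 23 nucleotide sugar and Golgi or endoplasmic reticulum carriers. There were also 20 carriers of vitamins, lipids, nucleosides and other solutes, 18 amino acid and peptide carriers, and 18 zinc and other metal carriers. Then came 13 chloride, bicarbonate and anion carriers, 12 lactate and glucose carriers, and 11 cation exchangers. The smallest transporter classes held 8 carriers of the glutamate families and 7 carriers of taurine, creatine and neurotransmitters.

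Photoreceptors fill the synaptic vesicles of their terminals with glutamate through a vesicular transporter and clear released glutamate through plasma membrane transporters. In the outer segment, sodium/calcium-potassium exchangers remove the calcium that enters through the light-regulated channels, and rods and cones are known for different members of that family. The retina also burns large amounts of glucose, exports and takes up lactate through monocarboxylate transporters, and holds high taurine.

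The study followed single photoreceptors of C57BL/6 mice in which a Cre allele at the thyroid hormone receptor TRb2 and the Ai6 fluorescent reporter mark cones. Fluorescent cells were picked singly with a micromanipulator after papain treatment of superior or inferior pieces of retina. The knockout cones (Trb2Cre-KO:Ai6, 2 months of age) numbered 50 superior and 48 inferior cells. The control cones (Trb2Cre-het:Ai6), which carry the same reporter and 1 Cre allele, came from 5 collections. Superior and inferior control cells numbered 26 and 30 at P2, 24 and 24 at P8, 24 and 24 at P21, 26 and 21 at P60, and 53 and 50 at 2 months. A further 29 cells were rods of 2-month mice with the tgNrl:gfp transgene, which marks rods. Every cone was thus chosen by a reporter whose marking relied on Cre at the locus that the knockout disrupts. The control cones were heterozygous at that locus. Each library was 1 cell and the labels name no animal, so a group of cells counted as 1 sample and no test treated cells as replicates.

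Values are CPM, read counts scaled by the authors to the size of each library, given as the mean over the cells of a group unless a cell range is stated. CPM do not correct for gene length, so levels are compared between groups and not between genes. Depth was 8.98e5 to 3.26e7 reads per cell, and median depth was higher in every 2-month group than in the others. Opn1mw, the medium-wavelength opsin that depends on this receptor, averaged 6.63 and 1.47 CPM in knockout cones of the superior and inferior retina, against 9599 and 3414 CPM in 2-month control cones. Thrb itself averaged 43.2 and 33.9 CPM in knockout cones of the superior and inferior retina, against 213 and 170 CPM in 2-month controls. In rods, 7 of 10 cone markers averaged under 1 CPM, and the summed rod markers were 84774 to 230644 CPM per rod. A P2 superior control library (number 4) and a 2-month superior knockout library (number 35) stood apart, with cone marker sums of 31.99 and 282 CPM, far under their groups. Leaving both out kept the number of members called in each comparison.

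A small set of members was found broadly in cones. In every one of the 12 cone groups, 14 members reached 10 CPM in at least 50% of the cells, which was 8.33% of members against 8.42% of all genes. They were the taurine transporter Slc6a6, the vesicular glutamate transporter Slc17a7 (VGLUT1), the plasma membrane glutamate transporters Slc1a2 (EAAT2) and Slc1a7 (EAAT5), the glutamine transporters Slc38a1 and Slc38a3, the mitochondrial carriers Slc25a3, Slc25a4, Slc25a5, Slc25a11 and Slc25a33, the zinc transporters Slc30a9 and Slc39a7, and Slc3a1, a partner subunit of amino acid exchangers. Within this set the mitochondrial oxoglutarate carrier Slc25a11 varied least over the cone groups, between 165 and 302 CPM. The EAAT5 gene Slc1a7 lay between 384 and 732 CPM, and the mitochondrial phosphate carrier Slc25a3 between 348 and 686 CPM. Slc17a7 varied most of the 14, from 138 CPM in P2 inferior cones to 1667 CPM in P21 superior cones. At 2 months the median member reached 10 CPM in 16.98% of superior and 12% of inferior control cones, and the median gene of the table in 22.64% and 18%.

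The ages asked which transporters a cone has soon after birth and which it has as a mature cell. The vesicular glutamate transporter Slc17a7, the lactate carrier Slc16a1 and the glutamine carrier Slc38a3 had their lowest control means at P2, and the glucose transporter Slc2a1 its highest. The monoamine and nucleoside carrier Slc29a4 and the neuronal glutamate transporter Slc1a1 had their highest means at P2 and P8. The 3 later collections (P21, P60, 2 months) were compared with the 2 earlier ones (P2, P8) with limma on log2(mean CPM + 1), adjusted by the Benjamini-Hochberg method over 10136 genes, of which 161 were members. No member passed at 0.05, and 19 of all genes did (0.187%). At an unadjusted p under 0.05 there were 26 members and 1468 genes (14.5%), edgeR on the recovered reads called 0 members (0.0296% of all genes) and DESeq2 called 3 (3.36% of all genes). The median log2 difference of all genes was -0.33 and that of members -0.09. For Slc17a7, Slc16a1 and Slc31a2 the value relative to the median of all genes is given beside the fitted one. The other log2 differences below are fitted values alone and are to be read against that median of -0.33. With edgeR's scaling the median was 0.02.

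Among the glutamate genes, Slc17a7 averaged 220.1, 715, 1667, 1500 and 1106 CPM in superior control cones at P2, P8, P21, P60 and 2 months. In inferior control cones the same ages gave 138, 808, 1013, 1481 and 643 CPM. Both zones were lowest at P2, and at P8, P21 and P60 every control cone had at least 99.7 CPM. The later collections differed from the earlier ones by a log2 difference of 1.69 ± 0.55 (SE, 5 collections), 2.02 relative to all genes (limma, adjusted p = 0.227). Slc17a6 (VGLUT2), the vesicular transporter of other retinal neurons, was lower in the later groups, with 23.3 CPM over the 6 later groups and 56.7 CPM over the 4 earlier groups (log2 difference -2.17 ± 0.84, adjusted p = 0.281 from limma). Slc1a1 (EAAT3) averaged 6.26 CPM in the later groups and 47.2 CPM in the earlier groups (-3.47 ± 0.90, limma adjusted p = 0.153). Slc1a2 stayed between 265 and 777 CPM and was highest at P21 in both zones. The glial glutamate transporter Slc1a3 was in few cones at 2 months, reaching 10 CPM in 7.55% of superior and 4% of inferior control cones.

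Among the lactate and glucose carriers, Slc16a1 (MCT1, the lactate and pyruvate transporter) averaged 60.4, 407, 655, 606 and 447 CPM in superior control cones from P2 to 2 months, and 18.6, 278, 560, 571 and 292 CPM in inferior ones. At P2 the median cell was at 0 in both zones, and only 5 of 26 superior and 2 of 30 inferior cells reached 10 CPM. At P8 this had become 21 of 24 and 16 of 24 cells. The later collections exceeded the earlier ones by 2.23 ± 0.75 on the log2 scale, 2.56 relative to all genes (limma, adjusted p = 0.236). Slc16a6 (MCT7), a monocarboxylate carrier, followed the same ages, with 6.26 and 10.9 CPM at P2 and 199.6 and 102 CPM at P8 in superior and inferior cones. Slc2a1 (GLUT1), the main glucose transporter of the retina, was highest at P2, with 429 and 260 CPM in superior and inferior cones against 197 and 166 CPM at 2 months (log2 difference of later and earlier collections -0.58 ± 0.33, limma adjusted p = 0.442). The lactate exporter Slc16a3 (MCT4) was at most 10.1 CPM in any control cone group.

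**Figure D1:**
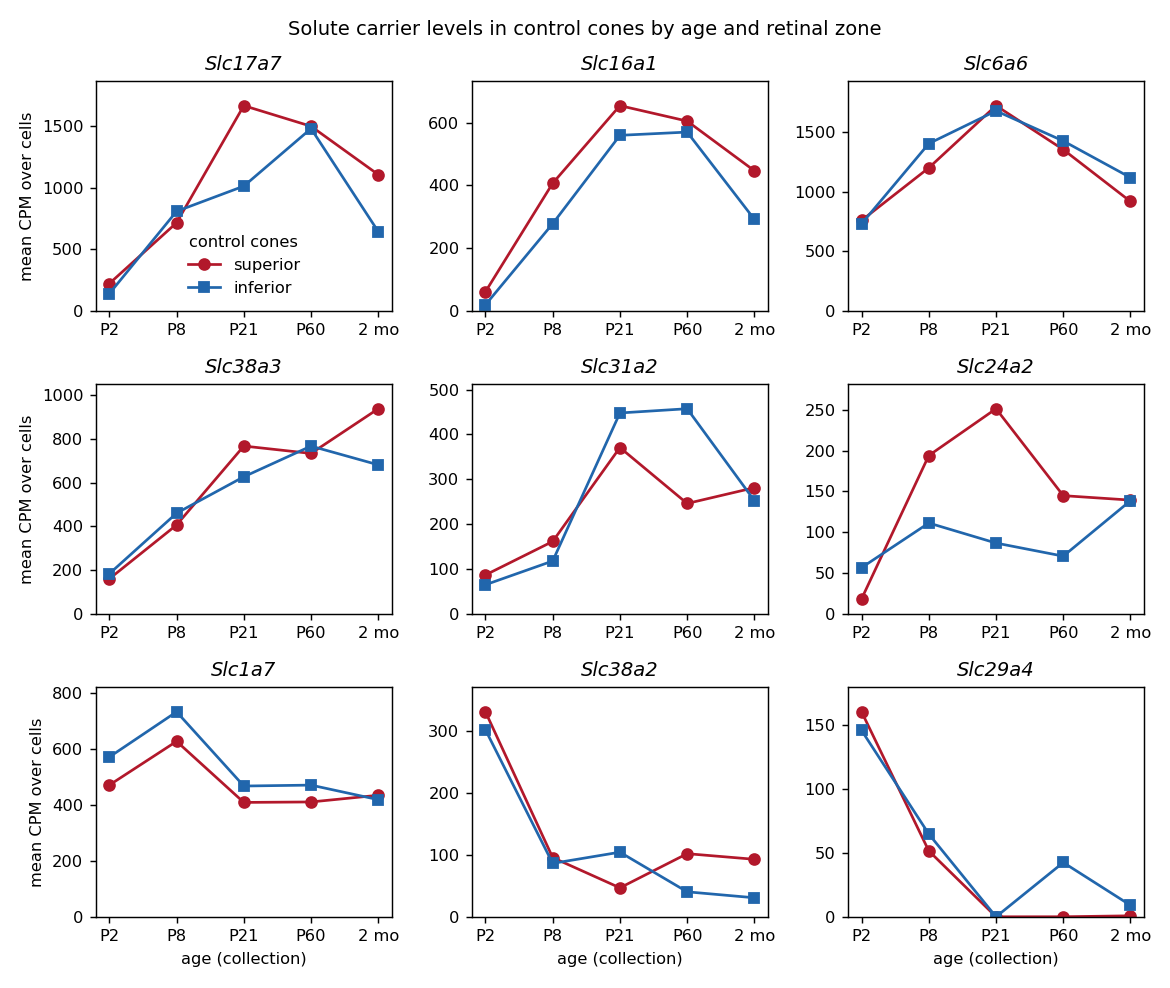
Mean CPM over cells (y axis, linear from 0) of 9 members in superior (circles) and inferior (squares) control cones at 5 ages (x axis, evenly spaced). Slc17a7, Slc16a1, Slc38a3 and Slc31a2 were lowest at P2, and Slc38a2 and Slc29a4 were highest at P2.

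Among the amino acid and peptide carriers no member passed the test, and 6 of 18 were higher later, beside 71 of all 161 tested members. The class median was -0.26, near the -0.33 of all genes. The glutamine transporter Slc38a3 (SNAT3) averaged 753 CPM in the 6 later groups and 303 CPM in the 4 earlier groups, and every later group lay above every earlier one. Its log2 difference was 1.45 ± 0.40 (limma, adjusted p = 0.170). Slc38a2 (SNAT2) had 332 and 303 CPM in superior and inferior cones at P2, and 30.8 to 105 CPM in all 8 control groups from P8 on (-1.43 ± 0.50, limma adjusted p = 0.248). Slc38a1 (SNAT1) showed neither pattern, with 273 to 446 CPM from P2 to P60 and 213 and 154 CPM in superior and inferior cones at 2 months. Complete separation of later above earlier groups was met by 4 of 161 tested members (Slc38a3, Slc31a2, Slc3a1 and Slc35e4), beside 2.37% of all genes. Separation below was met by 8 members (Slc1a7, Slc25a10, Slc25a39, Slc7a6, Slc35b2, Slc29a4, Slc38a7 and Slc1a1), beside 6.32% of all genes, so both shares were near the background.

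Of the metal carriers, Slc31a2 (CTR2), a copper transporter of endosomes, had the smallest p among members that were higher later. It averaged 342 CPM in the later groups and 107 CPM in the earlier groups (1.70 ± 0.37, 2.03 relative to all genes, limma adjusted p = 0.107). Its plasma membrane relative Slc31a1 (CTR1) did not follow it, with 214 to 298 CPM at P2 and P8 and 112 to 331 CPM later. The zinc carriers Slc30a9 and Slc39a6 had log2 differences of 0.57 ± 0.33 and -0.35 ± 0.39, the second near the median of all genes (-0.33). The zinc importer Slc39a10 and the zinc exporter Slc30a1 were low, at most 55.6 and 27.1 CPM in control cones.

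Slc29a4 (PMAT), a transporter of monoamines and nucleosides, had the smallest p of all members. It averaged 161 and 146 CPM in superior and inferior cones at P2 and 51.6 and 64.9 CPM at P8. At P21 it was listed at 0 in all 48 cells, in groups where 4.26% and 4.66% of all genes were listed at 0 in every superior or inferior cell. At P60 it averaged 0.029 and 42.6 CPM, the second value from 2 of 21 cells above 10 CPM, and at 2 months 0.774 and 9.02 CPM. The log2 difference was -4.97 ± 0.96, with a limma adjusted p of 0.0727. Other members that were lower later by their fitted values were the sulfate donor carrier Slc35b2 (-2.17 ± 0.71), Slc10a7 (-2.67 ± 0.83), the lysosomal glutamine carrier Slc38a7 (-2.20 ± 0.75), the mitochondrial carriers Slc25a29, Slc25a10 and Slc25a39 (-3.54, -1.28 and -1.26), the anion exchanger Slc4a2 (-2.60) and the riboflavin carrier Slc52a2 (-1.86). Those higher later were Slc35e4 (3.54 ± 0.998), the bicarbonate cotransporter Slc4a5 (2.84 ± 0.84), the mitochondrial Slc25a35 (2.14), the nucleoside carrier Slc29a2 (1.46), the anion exchanger Slc26a6 (1.29), Slc46a3 (1.24) and the sodium/calcium exchanger Slc8a3 (0.96). All of these had limma adjusted p values of 0.173 or more.

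The number of calls changed with the collections used and with the way cells were averaged. Without P8, so that P2 alone stood against the 3 later collections, limma called 8 members, beside 2.18% of all genes. Those higher later were Slc16a1 (3.87), Slc16a6 (4.39), Slc17a7 (2.75), Slc38a3 (2.12), Slc31a2 (2.13), Slc25a35 (3.51) and Slc35e4 (5.18), and the 1 lower later was Slc38a2 (-2.33). Their limma adjusted p values lay between 0.00195 and 0.0475, and the single P2 value is then assumed to vary as the later collections do. Without P2, the difference of Slc16a1 was 0.58 and that of Slc17a7 0.63, so most of both lay between P2 and P8. Averaging the logs of cells in place of the CPM gave 6 called members beside 3.95% of all genes, Slc38a3 and Slc31a2 higher and Slc25a10, Slc35b2, Slc29a4 and Slc1a1 lower. Age, collection and sequencing depth of the 2-month cells cannot be told apart for single ages. The summed rod markers in these cones moved with age too, averaging 840 and 795 CPM in superior and inferior cones at P2 and 10574 and 10929 CPM at P8, and their part in the differences was not tested.

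By class, the cation exchangers had the highest median among the classes in the age comparison, 0.45 on the log2 scale over 10 tested members, and the glutamate families the lowest, -0.63 over 8, beside -0.33 over all genes. No class had a called member. The mitochondrial carriers, the largest class, had a median of 0.06 over 32 tested members, with 17 higher later, beside 71 of all 161 tested members. Within it the ATP/ADP carrier Slc25a4 (ANT1) differed by 0.15 ± 0.38 between later and earlier collections. Its relative Slc25a5 (ANT2) had 144 and 124 CPM at P2, and 359 to 394 CPM at P8, P21 and P60. At 2 months Slc25a5 had 741 and 670 CPM in superior and inferior control cones, above all 8 other control groups. The aspartate/glutamate carrier Slc25a12 had a log2 difference of 0.95 ± 0.51.

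Superior and inferior mouse cones are known to differ in their opsins, and the zone comparison asked whether transporters differ as well. No member differed at 0.05, nor did any of the 10136 genes tested (0%), with limma and the collection as a block. At an unadjusted p under 0.05 there were 11 members and 710 genes (7%). edgeR called 0 members, and DESeq2 called 1, the glucose transporter Slc2a4 (GLUT4), beside 2.35% of all genes. Slc2a4 averaged 12.02 CPM in superior and 0.0128 CPM in inferior cones at 2 months, and at most 39.3 CPM in any group. The median log2 difference (superior minus inferior) was 0.13 over members and 0.10 over all genes.

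Slc16a1 was higher in superior cones in each of the 5 collections, averaging 435 CPM in superior and 344 CPM in inferior cones (log2 difference 0.63 ± 0.22). The 5 differences were 1.65, 0.55, 0.23, 0.09 and 0.61 from P2 to 2 months, so the largest was at P2, where the level was lowest. The other members with the smallest p that were higher in superior cones were the mitochondrial NAD carrier Slc25a51 (39.3 and 13.2 CPM in superior and inferior cones, 1.47 ± 0.42), Slc35e3 (59.1 and 29.04 CPM, 1.04 ± 0.31), the nucleotide sugar carrier Slc35d1 (28.6 and 12.1 CPM, 2.09 ± 0.70), the folate carrier Slc19a1 (129 and 89.3 CPM, 0.63 ± 0.22) and the mitochondrial iron carrier Slc25a28 (50.05 and 25.4 CPM, 1.01 ± 0.37). None had a limma adjusted p under 0.644.

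Those higher in inferior cones with the smallest p were Slc37a3 (14.97 and 39.8 CPM in superior and inferior cones, -1.05 ± 0.47), the cone exchanger Slc24a4 (113 and 153 CPM, -0.47 ± 0.22), the sialic acid donor carrier Slc35a1 (18.2 and 34.9 CPM, -1.45 ± 0.67), Slc30a9 (154 and 205 CPM, -0.41 ± 0.21), the magnesium transporter Slc41a1 (9.79 and 19.5 CPM, -1.32 ± 0.67) and the mitochondrial Slc25a14 (17.7 and 30.6 CPM, -0.86 ± 0.45). Their limma adjusted p values were 0.716 to 0.744. In all, 8 of 161 members were above in superior cones in 5 of 5 collections, beside 4.96% of all genes, and 1 was below in all 5, beside 2.4%. Whether zone differences shifted between earlier and later collections was also tested, and limma called 0 members and 0 genes (0%), with 10 members and 508 genes (5.01%) at an unadjusted p under 0.05. The cone marker sum, in which the opsins are most abundant, averaged 10691 to 51117 CPM over the superior control groups and 12377 to 110307 CPM over the inferior ones, and its part in the CPM of other genes was not tested.

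**Figure D2:**
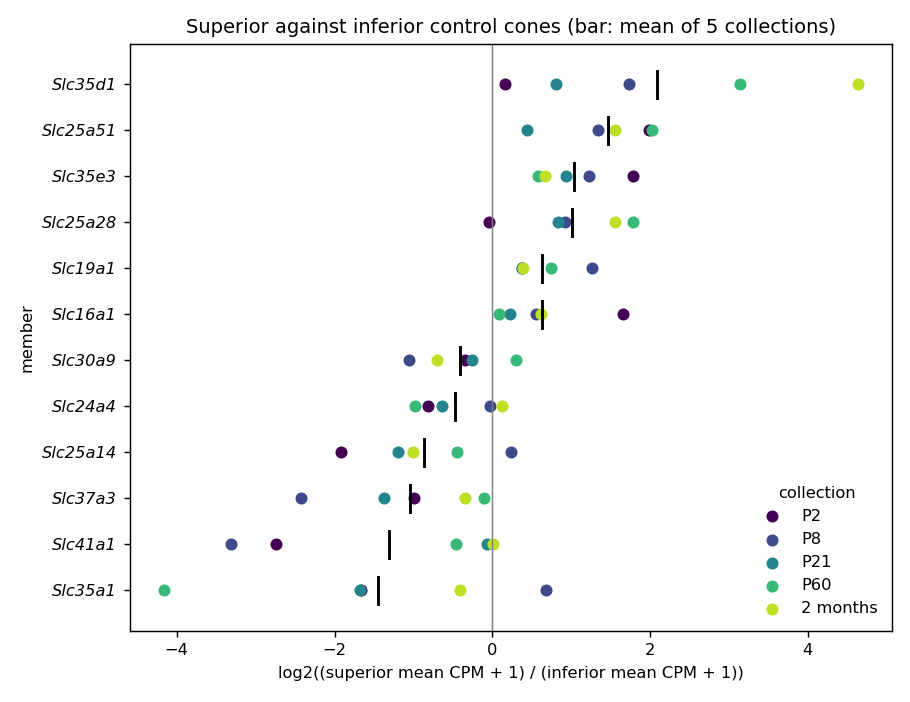
Log2 ratio of mean CPM + 1 in superior over inferior control cones (x axis) for the 12 members with the smallest p, 6 in each direction (y axis). Points are the 5 collections and bars their mean, and for Slc16a1, Slc35e3, Slc19a1, Slc25a51 and Slc35d1 all 5 points lie above 0.

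Rods and cones of the same age are known to use different calcium exchangers, and the rods were compared with both zones of 2-month control cones. The rod exchanger Slc24a1 (NCKX1) was in every rod, and the cone exchangers Slc24a2 (NCKX2) and Slc24a4 (NCKX4) were listed at 0 in all of them. By a rule of at least 4-fold against both zones, with 10 CPM in at least 25% of the cells of the higher group, 2 members were higher in rods (1.19% of members, 0.5% of all genes) and 12 were lower (7.14% of members, 6.65% of all genes). There is 1 rod group, so there is no test. The median gene was lower in rods, by a log2 ratio of -1.01 against superior and -0.81 against inferior cones, and the median member by -1.32 and -0.95. Rods also had fewer genes, 3893 in the median cell against 5824 and 5782 in superior and inferior control cones, at a median depth of 18313296 reads against 12568958 and 13578809.

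Slc24a1 lay between 17.7 and 6886 CPM in the 29 rods, with a median of 1456 and a mean of 1999.9 CPM. In 2-month control cones it averaged 11.3 and 21.9 CPM in superior and inferior cells, with a highest cell of 238 and 463 CPM. It reached 10 CPM in 29 of 29 rods, against 5 of 53 superior and 5 of 50 inferior control cones. The log2 ratio of mean CPM + 1 was 7.35 against superior and 6.45 against inferior cones. The summed rod markers averaged 142440 CPM in rods, against 14747 and 20693 CPM in those cones. Across the cells of a control cone group, Slc24a1 and the summed rod markers had Spearman correlations between -0.19 (2-month superior, n = 53) and 0.39 (P60 inferior, n = 21). Pearson correlations lay between -0.18 and 0.76 in the same 2 groups. These describe cells that share a group, a collection and its depth, and the part of rod RNA in the Slc24a1 values was not tested.

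Slc24a2, Slc24a4 and the sodium/calcium exchanger Slc8a3 (NCX3) were listed at 0 in all 29 rods. In control cones at 2 months Slc24a2 averaged 139 CPM in cells of either zone, and 49.1% and 44% of cells reached 10 CPM. Slc24a4 averaged 136 and 125 CPM in superior and inferior cones, with 45.3% and 28% of cells. Slc8a3 averaged 278 and 142 CPM, with 67.9% and 46% of cells. Of the 103 control cones of 2 months, 22 had 10 CPM of both Slc24a2 and Slc24a4, 26 of Slc24a2 alone, 16 of Slc24a4 alone and 39 of neither. Cells under 10 CPM of both cone exchangers were thus common, and whether this was missed RNA was not tested. Fewer cells had none at all: of 50 inferior control cones, 5 were at 0 for Slc24a2 and 4 for Slc24a4. All 3 exchangers were lower at P2 than at P8 in both zones: Slc24a2 had 18.2 and 56.5 CPM in superior and inferior cones at P2 and 194 and 111 CPM at P8.

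A listed 0 in rods needs care. In all, 39 of 168 members (23.2%) and 1690 of 10390 genes (16.3%) were listed at 0 in every rod, among them Eif5 and Eif3l, which all cells are thought to use and which averaged 104 to 175 CPM in 2-month control cones. No fold is therefore given for such members. In the 2-month control groups, 0.327% and 0.404% of genes in superior and inferior cones were listed at 0 in every cell.

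**Figure D3:**
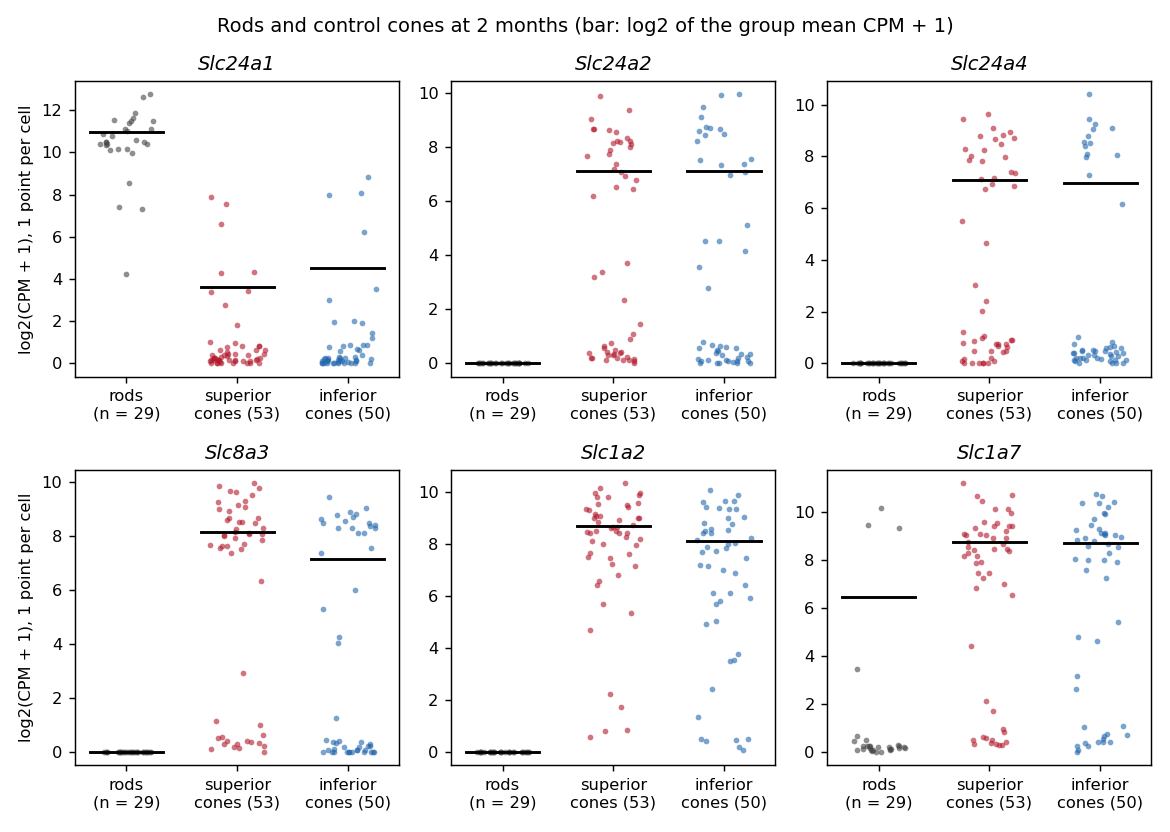
Log2(CPM + 1) of single cells (y axis) in rods, superior and inferior control cones of 2 months for 6 members, with the log2 of the group mean + 1 as a bar. Slc24a1 was high in rods and near 0 in most cones, and Slc24a2, Slc24a4, Slc8a3 and Slc1a2 were at 0 in all 29 rods.

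The plasma membrane glutamate transporters Slc1a2 and Slc1a7 were among the 12. Slc1a2 was listed at 0 in all 29 rods, against means of 411 and 276 CPM in superior and inferior control cones, where 90.6% and 84% of cells reached 10 CPM. Slc1a7 reached 10 CPM in 3 of 29 rods, with a mean of 86.3 CPM, against 39 of 53 superior and 34 of 50 inferior control cones with means of 434 and 418 CPM. The vesicular transporter Slc17a7, by contrast, was in both cell types, in 21 of 29 rods with a mean of 541 CPM, against 1106 and 643 CPM in superior and inferior cones (log2 ratios -1.03 and -0.25).

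The other members lower in rods were the glutamine transporter Slc38a1 (1.19 CPM in rods, against 213 and 154 CPM in superior and inferior cones), the cationic amino acid carrier relative Slc7a4 and Slc35g1 (both listed at 0 in all rods, against 100.2 and 84.3 CPM, and 88.7 and 43.9 CPM), the potassium/chloride cotransporter Slc12a5 (1.62 CPM, against 48.4 and 69.8 CPM), Slc3a1 (11.4 CPM, against 81.3 and 104 CPM), the bicarbonate cotransporter Slc4a7 (16.3 CPM, against 136 and 112 CPM) and the copper importer Slc31a1 (19.2 CPM, against 178 and 112 CPM). Slc4a7 is a gene whose loss is known to damage photoreceptors in mice, and it reached 10 CPM in 2 of 29 rods. The second member higher in rods was the ATP-magnesium/phosphate carrier Slc25a25, with a mean of 281 CPM against 55.0 and 25.5 CPM. It rested on 8 rods, the median rod being at 0.315 CPM.

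Among members not called, Slc6a6 averaged 903 CPM in rods, against 916 and 1117 CPM in superior and inferior control cones, and Slc25a4 averaged 874 CPM, against 993 and 1105 CPM. Their log2 ratios were -0.02 and -0.31, and -0.18 and -0.34, above the medians of all genes. Slc25a5 had log2 ratios of -1.20 and -1.05, near those medians. Slc16a1 averaged 611 CPM in rods, against 447 and 292 CPM (0.45 and 1.06), but from 13 of 29 cells, the median rod having 1.62 CPM. Slc2a1 averaged 359 CPM in rods, against 197 and 166 CPM (0.86 and 1.11). Only 9 of 29 rods reached 10 CPM of Slc2a1, and the median rod had 0.793 CPM. The lactate and glucose class had the medians nearest to 0 among the transporter classes, -0.29 against superior and 0.01 against inferior cones. The chloride, bicarbonate and anion class had the lowest median against superior cones, -3.84, and -2.44 against inferior cones. Against inferior cones the glutamate families were lowest, at -3.21, and had -2.48 against superior cones. Members listed at 0 in every rod enter these medians. The summed Müller glia markers averaged 2811 CPM in rods, against 996 and 1117 CPM in superior and inferior control cones, and Slc1a3, which is known for Müller glia, averaged 77.9 CPM in rods, from 1 of 29 cells above 10 CPM, against 20.4 and 11.5 CPM. The part of these other cells in the rod values was not tested.

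The knockout asked which cone transporters depend on the receptor. By a rule of at least 2-fold in both zones against 2-month controls, with the same minimum level, 3 members were higher in knockout cones (1.79% of members, 0.741% of all genes) and 0 were lower (0.818% of all genes). With 1 collection per side there is no test. The same rule was applied to P60 controls over 2-month controls, collections of nearly the same age, as a yardstick of how far collections differ. It gave 4 members higher and 1 lower at P60 (2.38% and 0.595% of members), beside 2.13% and 2.24% of all genes. In both directions together, 4.37% of all genes met the rule at P60 and 1.56% in the knockout. The larger count at P60 was thus a trait of the whole gene table. Against both the 2-month and the P60 controls, 0 members met the rule in either direction (0.115% of genes higher, 0.337% lower).

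Slc24a1 averaged 49.2 and 86.5 CPM in knockout cones of the superior and inferior retina, against 11.3 and 21.9 CPM in 2-month controls (log2 ratios of mean CPM + 1 of 2.03 and 1.93). It reached 10 CPM in 14 of 50 and 14 of 48 knockout cones, against 5 of 53 and 5 of 50 control cones. P60 inferior control cones had a mean of 132 CPM, from 4 of 21 cells with a highest cell of 1635 CPM, so against P60 the inferior ratio was -0.60. The summed rod markers averaged 15801 and 19517 CPM in knockout cones of the superior and inferior retina, against 14747 and 20693 CPM in 2-month controls. The sum of the 2 bipolar cell markers measured averaged 376 and 316 CPM in knockout cones of the superior and inferior retina, against 32.3 and 210.4 CPM in 2-month controls. The part of other cells in the knockout values was not tested. Slc25a22, a mitochondrial glutamate carrier, averaged 157 and 190 CPM in knockout cones of the superior and inferior retina, against 62.6 and 54.8 CPM in 2-month controls (1.31 and 1.78). Its P60 control means were 91.3 and 141 CPM. Slc35g2, a carrier of unassigned substrate, averaged 84.1 and 90.8 CPM in knockout cones of the superior and inferior retina, against 36.9 and 42.3 CPM, with nearly the same share of cells, 30% and 29.2% against 24.5% and 28%. Its P60 control means were 76.0 and 34.5 CPM.

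The transporters named next did not meet the rule, each being within 2-fold of 2-month controls in at least 1 zone. Slc24a2 averaged 104 and 64.6 CPM in knockout cones of the superior and inferior retina, against 139 and 139 CPM in controls (-0.42 and -1.09), and Slc24a4 averaged 112 and 120.0 CPM, against 136 and 125 CPM (-0.27 and -0.06). Slc17a7 was lower in superior and higher in inferior knockout cones, with 844 and 1207 CPM against 1106 and 643 CPM. Slc16a1 averaged 247 and 214 CPM in knockout cones of the superior and inferior retina, against 447 and 292 CPM (-0.85 and -0.44), with 48% and 45.8% of cells at 10 CPM, against 75.5% and 58%. Slc6a6 averaged 1138 and 1362 CPM, against 916 and 1117 CPM. Slc1a2, Slc1a7, Slc25a3 and Slc25a4 had log2 ratios of 0.11 and 0.87, -0.17 and 0.25, 0.27 and -0.20, and 0.10 and -0.03 in superior and inferior cones. The creatine transporter Slc6a8 had 2.27 and 0.34. The chloride cotransporters Slc12a5 and Slc12a2 had 0.90 and 0.92, and -0.15 and -0.18.

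**Figure D4:**
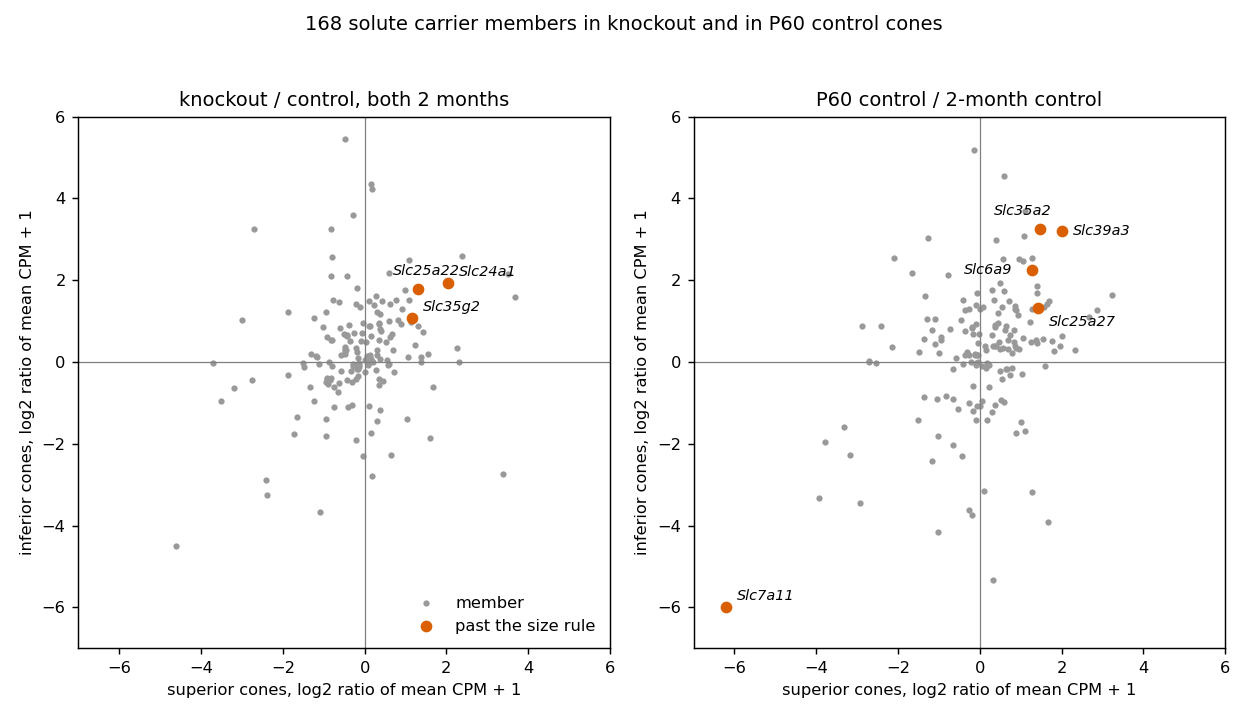
Log2 ratios of mean CPM + 1 in superior (x axis) and inferior cones (y axis) of the 168 members, for knockout over 2-month control cones (left) and P60 over 2-month control cones (right). Orange points met the rule of 2-fold in both zones and a minimum level. In the right plot Slc7a11 lies near -6 in both zones.

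Slc7a11, the cystine/glutamate exchanger that feeds glutathione synthesis, followed the collection. It averaged 0.21 to 1.44 CPM in the 8 control groups from P2 to P60, where 0 cells reached 10 CPM. At 2 months it averaged 92.0 and 92.4 CPM in superior and inferior control cones, 48.1 and 69.8 CPM in knockout cones of the superior and inferior retina, and 92.6 CPM in rods. Most cells of 2-month controls and rods had it, with 98.1% and 92% of superior and inferior control cones and 82.8% of rods at 10 CPM or more, against 52% and 52.1% of knockout cones. The P60 and 2-month controls are of nearly equal age, and their log2 ratio (P60 over 2 months) was -6.21 in superior and -5.99 in inferior cones. Thinning all cells to 897892 reads left the 98.1% share as it was. In all 10390 genes, 16 had under 2 CPM in every group of P2 to P60 and at least 10 CPM in every 2-month group, a rule chosen after Slc7a11 was seen, and Slc7a11 was the 1 member among them. The cause was not tested. The members higher at P60 than at 2 months were the zinc importer Slc39a3 (187 and 190.0 CPM at P60 against 45.7 and 19.7 CPM in superior and inferior cones), the UDP-galactose carrier Slc35a2, the mitochondrial Slc25a27 and the glycine transporter Slc6a9.

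The study also listed where the receptor binds and where chromatin depends on it. Biotin-tagged receptor was pulled down from E18 retina (chromatin affinity purification, ChAP, 2 ThrbHAB:BirA and 2 BirA control samples). Open chromatin was mapped by ATAC-seq in purified P30 cones of knockout and control mice (2 samples each), and the regions came as an induced and a suppressed list, names taken as deposited. A ChAP region lay within 50 kb of 76 of 168 members (45.2%, against 39% of 10143 placed genes), an induced ATAC region within 50 kb of 66 (39.3%, against 35.5%) and a suppressed one within 50 kb of 26 (15.5%, against 13.2%). Within 10 kb the members were 44, 40 and 18 (26.2%, 23.8% and 10.7%, against 21.2%, 17.7% and 7.69% of genes). Both a ChAP region and a region of either ATAC list lay within 50 kb of 54 members (32.1%, against 25.4% of genes). Nearness names no target gene, and positions below are on GRCm38, counted from 1.

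Slc1a7 (chr4:107968406-108013529) had 7 ChAP regions within 50 kb, and the one with the smallest p in the authors' deposited table near it (1.14e-23, chr4:107966549-107966848) lay 1.56 kb outside the gene and overlapped the induced region chr4:107966470-107966777. Slc17a7 had a ChAP region 19.2 kb away (chr7:45195353-45195652, p = 5.34e-19 in the authors' deposited table) inside an induced region, and another ChAP region within the gene. Slc16a1 (chr3:104638664-104658462) had 10 induced regions between 2.01 and 48.6 kb from one end, all outside the gene, and both of its ChAP regions lay inside induced ones. Slc25a22 had a ChAP region within the gene (chr7:141434039-141434338) overlapping an induced region. Slc24a4 and Slc8a3 had ChAP regions within the gene. Slc24a1, the rod exchanger, had a ChAP region within the gene and a suppressed region over one end (chr9:64951033-64952464).

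**Figure D5:**
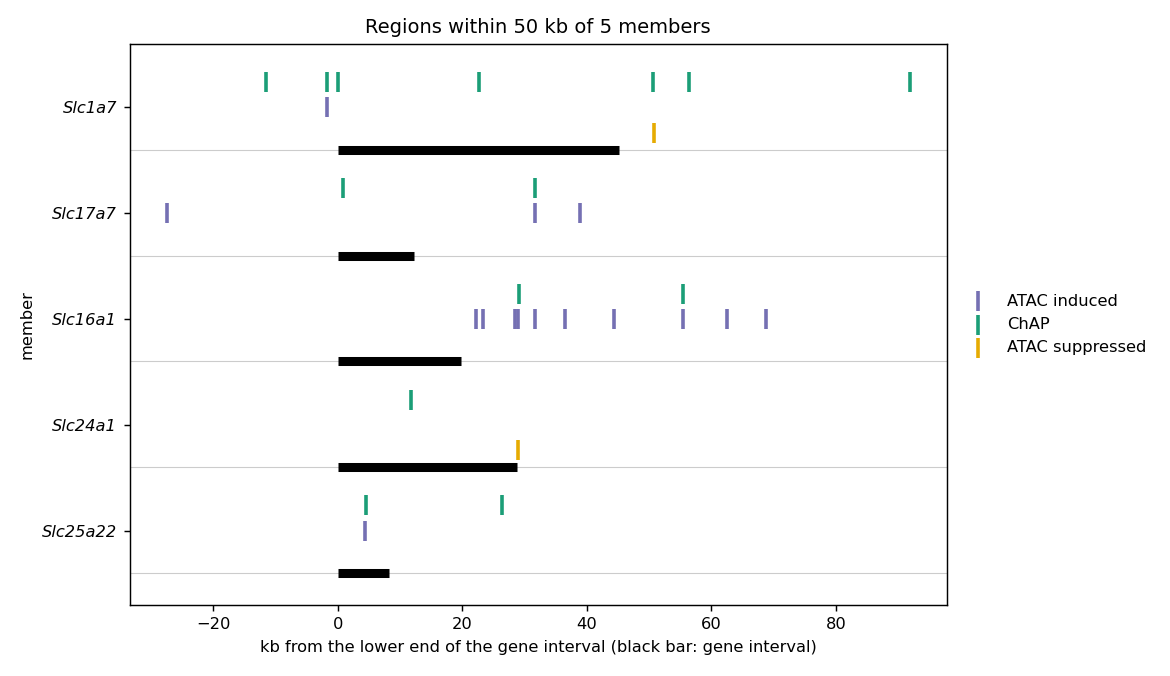
Regions within 50 kb of 5 members, by distance of the region's midpoint from the lower end of the gene interval in kb (x axis), with the gene interval as a black bar. Slc1a7 has the most ChAP regions of the 5 (7), Slc16a1 the most induced ATAC regions (10), and Slc24a1 and Slc1a7 have 1 suppressed region each.

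Members with several regions overlapping the gene were Slc24a3, a sodium/calcium-potassium exchanger of other tissues, with 7 suppressed regions within 50 kb, and the bicarbonate transporter Slc4a8, with 9 induced regions. Slc24a3 averaged 27.8 and 0.0232 CPM in knockout cones of the superior and inferior retina, against 4.86 and 0.0163 CPM in 2-month controls, from at most 2% of cells. Slc4a8 averaged 10.1 and 14.2 CPM in knockout cones of the superior and inferior retina, against 16.1 and 4.49 CPM. The members with most overlapping regions, Slc10a7, Slc1a2, Slc25a13, Slc6a6, Slc8a3, Slc27a1, Slc44a1 and Slc4a7 among them, did not meet the size rule in the knockout. That rule was met by 3 members in all (1.79%, beside 1.56% of all genes), so missing it says little about overlapping regions. Of the 3 that met it, Slc24a1 and Slc25a22 each had 2 regions overlapping the gene, and Slc35g2 had no region of any list within 50 kb.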

How the data were processed

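The RNA table was deposited by the authors in CPM, with 10390 genes and 430 single-cell libraries (SMART-Seq v4 cDNA, ThruPLEX libraries, per the labels' protocols). Per the submitters' processing notes, bcl2fastq 2, STAR 2.7.3a, MACS2 2.2.7.1 and GRCm38/mm10 were used. The counting tool is not given in the sources used here. Each gene reached at least 34.4 CPM in some library. Whole reads were recovered for 100% of 2135876 values (tolerance 0.1 reads). Depth is given in the report, and cell shares have 95% exact binomial (Clopper-Pearson) intervals in the tables, which cover counting error only. The ChAP list came from the authors with a p-value column of unstated kind, and the ATAC lists held positions only. Gene intervals were those of RefSeq (GRCm38.p6), with 168 members matched by gene ID.

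Libraries 3 and 14 of P60 superior cones differed by far less than other pairs (chi-square per degree of freedom 1.91) and were counted as 1 cell, leaving 429. Groups of cells were averaged, genes averaging 5 CPM or more were tested on log2(mean CPM + 1) with limma 3.58.1 in R 4.3.3 (trend, collection as block for zones, Benjamini-Hochberg, 0.05), and fits were tested on simulated data. edgeR 4.0.16 and DESeq2 1.42.0 on recovered reads were alternatives. p-values measure the spread between collections, and nothing says how many animals gave them. In the age comparison that spread includes the differences of age among the earlier and among the later collections. Members, classes and lists were chosen with earlier results of these data known. Members named were 35 listed photoreceptor transporters (27 in the table, of which 1 is not reported here, and the other 8 not analysed here), those with the smallest p in each direction (6 for zones, 12 for ages), those that met a size rule, and up to 10 with regions overlapping the gene.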

Additional observations from a re-analysis of the deposited data

How the results depend on the processing

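Directions were followed for members with the smallest p in each direction (6 for zones, 12 for ages) and for those that met a size rule. The zone and age members so followed kept their direction in all alternatives that tested them. The 1 value that reversed was Slc24a1 in inferior knockout cones, -0.60 on the log2 scale against P60 controls. The direction of other members named by zone or age was not followed. Zone calls stayed at 0 members under the alternatives, with collections left out in turn giving 0 to 0, except with DESeq2 (1). The replicate numbers of the labels only name cells, so the collection was the block, and the fit with no replicate block called 0 members and 2 of all genes. Age calls (0) became 6 with averaged logs, 1 with a pseudocount of 5 CPM, 3 with DESeq2, and 0 to 8 with each collection left out in turn, 8 being without P8; the cause was not tested. Over all genes the age calls were 19, with 400 under averaged logs, 221 without P8, 341 with DESeq2 and 3 with edgeR. Knockout size calls (3 members) became 7 with averaged logs, 14 with no minimum level, 1 at 3-fold and 5 against P60 controls (4.17%, 8.33%, 0.595% and 2.98% of members, beside 3.07%, 8.83%, 0.423% and 3.05% of all genes). P60 calls (5) became 12, 27 and 2 for the first 3 of these settings (7.14%, 16.1% and 1.19%, beside 6.35%, 13.1% and 1.85%), and rod calls (14) became 63 with no minimum (37.5%, beside 32.9%). With a 10 kb window, 44 members had a ChAP region and 40 an induced ATAC region, against 76 and 66 at 50 kb. The number of collections limits the tests. Why members were listed at 0 was not tested. Rods had the highest median depth of all groups (18313296 reads) and the largest share of genes at 0 in every cell (16.3%).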

Other observations

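Of the members without a plain transporter symbol, Slc9a3r1, which encodes a scaffold protein that anchors membrane transporters, averaged 142 CPM in rods, against 45.8 and 51.5 CPM in superior and inferior control cones of 2 months, and 18.7 and 26.3 CPM in knockout cones of the superior and inferior retina, against the same controls. It reached 10 CPM in 13.8% of rods. Slc4a1ap was listed at 0 in all rods, against 38.8 and 27.2 CPM in superior and inferior control cones.

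Chosen after its values were seen, the neutral amino acid transporter Slc6a15 averaged 0.347 and 0 CPM in knockout cones of the superior and inferior retina, against 32 and 21.5 CPM in 2-month controls. It did not meet the size rule, since only 9.43% and 6% of superior and inferior control cones reached 10 CPM. The glial glutamate transporter Slc1a3, on the same footing, averaged 3.03 and 0.691 CPM in knockout cones of the superior and inferior retina, against 20.4 and 11.5 CPM, with summed Müller glia markers of 592 and 665 CPM, against 996 and 1117 CPM. Their part in the Slc1a3 values was not tested.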
